A study of Mus musculus with 2 samples.

Results

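The genes described are 44 mouse genes for protein folding and secretion in the endoplasmic reticulum (ER). They were taken by symbol from the 31053 genes counted in 2 single-cell RNA-seq libraries of bone marrow, and all 44 were found in at least 40 cells of each library. One library held cells sorted as E-cadherin+cKIT+ and the other cells sorted as E-cadherin+cKIT-. The strain is FVB in the labels, whereas the paper gives wild-type or Vav-iCre;mTmG mice, in which Cre is driven by the Vav promoter in blood cells and switches on a membrane reporter. Cells came from several mice, and no label ties a cell to a mouse. The paper describes the cKIT- sort as basophil and mast cell precursors and the cKIT+ sort as mainly progenitors of this lineage, with some cells of erythroid and monocyte character among them.

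Proteins destined for secretion, for granules or for the cell surface enter the ER through a membrane channel while they are being made. Inside, a signal peptidase removes the leader sequence, an oligosaccharyltransferase attaches sugar chains, and chaperones and disulfide isomerases fold the chain before it leaves for the Golgi. When unfolded chains build up, the factors XBP1, ATF4 and ATF6 raise transcription of the chaperones, a program known as the unfolded protein response. Basophils store serine proteases such as MCPT8 and PRSS34 in granules, and both proteases take this route.

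ER chaperone genes are known for an ER stress element, made of CCAAT, 9 further bases and CCACG, to which NF-Y and ATF6 bind. A window from 250 bases before to 50 bases after the RefSeq start was at hand for 37 of the 44 genes. This element stood on either strand in 7 of the 37 (18.9%), against 37 of 27025 genes with a window (0.137%). Calr, Canx, Creld2, Dnajc3, Hspa5 and Pdia6 each held 1, and Hsp90b1 held 2. A second form, made of ATTGG, 1 base and CCACG, stood in Dnajb11 and Herpud1 (0.0444% of all genes). The core TGACG of cyclic AMP response elements was present in 16 of 37 members (43.2%) and in 23.0% of all genes, and TTGCATCA in Herpud1 alone among the members (1.03% of all genes). None of these motif matches overlapped another in the members' windows. A match is a description of the letters and not evidence of binding. The elements of 6 members follow, read 5′ to 3′ on the gene's strand from RefSeq on GRCm38.p6, because these genes recur in the comparisons described afterwards. Capitals mark the paired parts of the element, or their reverse complements where it runs against the gene.
Calr: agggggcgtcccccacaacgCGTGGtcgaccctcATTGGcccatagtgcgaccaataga
Canx: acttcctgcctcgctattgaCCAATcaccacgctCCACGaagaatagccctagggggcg
Hsp90b1: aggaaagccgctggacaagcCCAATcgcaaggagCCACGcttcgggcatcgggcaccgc
Pdia6: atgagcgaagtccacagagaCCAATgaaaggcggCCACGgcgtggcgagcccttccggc
Creld2: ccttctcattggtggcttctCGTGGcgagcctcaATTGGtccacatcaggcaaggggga
Herpud1: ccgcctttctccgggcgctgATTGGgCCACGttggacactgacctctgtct

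These stretches lie upstream of the RefSeq starts and overlap no exon in GENCODE M21. The element of Hspa5, 65 bases before its RefSeq start, falls in the first exon of a longer GENCODE transcript and is not printed. The Calr stretch is chr8:84847055-84847113 on the minus strand, with its element beginning 162 bases before the start. That of Canx is chr11:50325780-50325838 on the minus strand, 145 bases before the start, and that of Hsp90b1 is chr10:86705618-86705676 on the minus strand, 212 bases before it. Pdia6 has its stretch at chr12:17266471-17266529 and Creld2 at chr15:88819500-88819558, both on the plus strand, 98 and 126 bases before their starts. Herpud1 carries the second form at chr8:94386357-94386407 on the plus strand, 52 bases before the start.

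After the study's filter, 6479 cKIT+ cells held 91108781 unique molecular identifiers (UMIs, each counting 1 captured RNA molecule whatever its length), and 3662 cKIT- cells held 22869169. The median cell had 13039 and 4416.5 UMIs. Among all deposited cells, before this filter, 10 cell barcodes occurred in both libraries. Kit, the gene of the sorted receptor, stood at 37.1 CPM (its UMIs scaled to a total of 1000000) among cKIT+ and at 0.874 CPM among cKIT- cells, as the labels of the sorts say. The 10 basophil markers together held 26347 and 75361 CPM. Of the 5 genes on the mast cell list, Mcpt4, Tpsb2 and Tpsab1 had 2, 0 and 1 UMIs in the cKIT+ library, the chymase gene Cma1 had 1631 UMIs (17.9 CPM) and Gzmb had 8165 UMIs (89.6 CPM). With 1 library per sort no difference could be tested. Brackets after a value give 95% intervals for counting error alone, and p-values are not given.

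The ER genes took a larger share of the RNA in the cKIT+ cells. They held 1312486 UMIs, or 1.44% of the total (1.438 to 1.443), among cKIT+ cells and 271241 UMIs, or 1.19% (1.182 to 1.191), among cKIT- cells, a ratio of 1.22 (1.21 to 1.22). Cells differed widely within each sort. The share per cell had quartiles of 0.851, 1.33 and 1.72% in the cKIT+ cells and of 0.592, 0.791 and 1.199% in the cKIT- cells, so the upper quartile of the cKIT- cells lay above the lower quartile of the cKIT+ cells. The median cell held 170 UMIs of these genes in the first sort and 33 in the second, from 34 and 20 different members.

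Calr alone supplied much of this difference. It encodes calreticulin, a soluble lectin chaperone that also buffers calcium, and was the most abundant member, with 19.3 and 11.7% of the UMIs of the 44 genes (together called the module). Its level was 2786 CPM in cKIT+ and 1391 CPM in cKIT- cells, a ratio of 2.00 (1.98 to 2.03). Without Calr the ratio of the module was 1.11 (1.105 to 1.115). Members were compared one by one where they reached 50 CPM in 1 of the groups, which left 39 here. Of these, Calr alone passed 2-fold on the cKIT+ side, against 6.14% of the 3224 genes compared. In the other direction 0 members passed 2-fold, against 11.5% of all genes. Median ratios were 1.08 over the members and 0.959 over all genes compared.

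**Figure D1:**
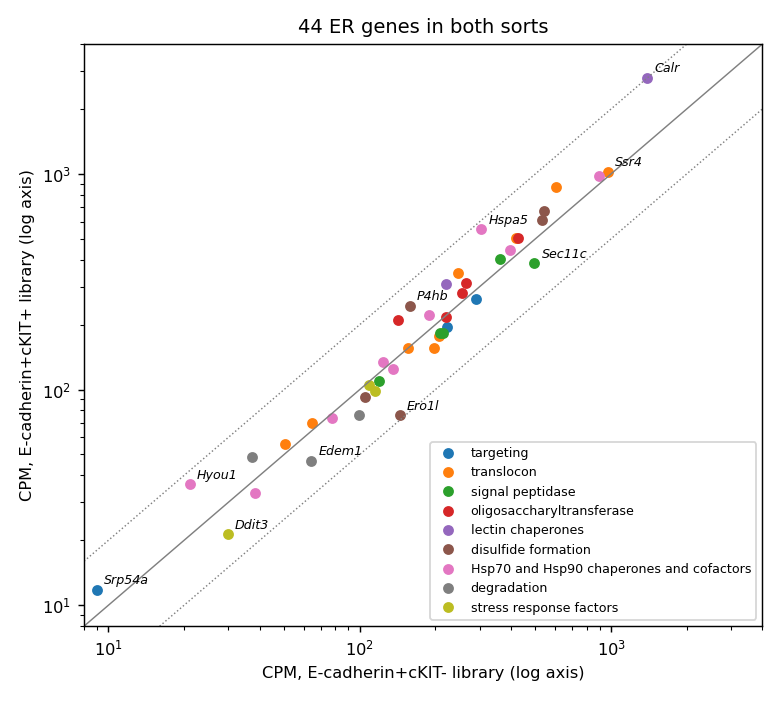
Level of each of the 44 genes in the cKIT+ library (vertical axis, CPM, log scale) against the cKIT- library (horizontal axis, CPM, log scale), coloured by role. The solid line marks equal levels and the dotted lines 2-fold differences. Calr lies on the upper dotted line, and Ero1l (76.2 and 144 CPM) comes closest to the lower one.

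Taken by role, the lectin chaperones differed most between the sorts, at 0.309% of UMIs in cKIT+ and 0.161% in cKIT- cells (ratio 1.92). Canx, the membrane-bound partner of calreticulin, was at 308 and 220 CPM. The Hsp70 and Hsp90 group was at 0.261 and 0.218% (1.198). Its central member Hspa5, the Hsp70 chaperone BiP, had 555 CPM in cKIT+ and 304 CPM in cKIT- cells (1.83), while Hsp90b1, the ER form of Hsp90, was nearly level at 982 and 892 CPM. Hyou1, which exchanges the nucleotide on BiP, stayed under the 50 CPM limit at 36.4 and 21.0 CPM. Of the BiP cofactors, Dnajc3 had 134 and 124 CPM, Dnajb11 124 and 135 CPM, and Dnajb9 33.2 and 38.4 CPM. Manf, Sdf2l1 and Creld2, small ER proteins induced with the chaperones, had ratios of 1.13, 1.18 and 0.951. Ratios in this group thus ran from 0.865 for Dnajb9 to 1.83 for Hspa5.

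Disulfide formation split in opposite directions. The isomerase P4hb was at 245 CPM in cKIT+ and 158 CPM in cKIT- cells (1.55), and Pdia6 and Pdia3 at ratios of 1.25 and 1.15. Ero1l, the oxidase that recharges the isomerases, had the lowest ratio of all members, 76.2 against 144 CPM (0.529, interval 0.508 to 0.552). Pdia4 was also lower in cKIT+ cells, at 92.8 and 105 CPM.

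At the membrane, the translocon group took 0.335% of UMIs in cKIT+ and 0.292% in cKIT- cells (1.15). Sec61b and Sec61g, the small subunits of the channel, had ratios of 1.44 and 1.199, and the pore-forming Sec61a1 1.08. Ssr4, a subunit of the translocon-associated TRAP complex, was the second most abundant member in both sorts at 1022 and 971 CPM. The other TRAP subunits went both ways, with Ssr2 at 347 and 247 CPM, Ssr1 at 156 and 198 CPM and Ssr3 at 157 and 156 CPM. Sec62 and Sec63, which serve chains that enter after synthesis, had ratios of 0.857 and 1.11. Among the oligosaccharyltransferase subunits Rpn1 had the largest ratio (211 and 141 CPM, 1.49), followed by Ddost and Dad1 at 1.18 each, Rpn2 at 1.10 and Ostc at 0.987.

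The remaining roles were slightly lower in cKIT+ cells. Signal recognition particle genes, which bring ribosomes to the ER, had a group ratio of 0.9002, with Srp9 at 195 and 222 CPM and Srp14 at 263 and 291 CPM. Srp54a had 11.8 and 8.96 CPM, and its reads can be shared with near-identical copies, so its value is uncertain. Signal peptidase genes had a group ratio of 0.905, and the catalytic subunit Sec11c stood at 385 and 496 CPM. Spcs2 went the other way at 405 and 360 CPM, and Spcs1, Spcs3 and Sec11a had ratios between 0.857 and 0.917. Degradation genes had a group ratio of 0.857. Herpud1, which organizes the ubiquitin ligase of ER-associated degradation, had 76.4 and 98.9 CPM, and the mannose-trimming factors Edem1 and Edem3 had 46.7 and 64.0 and 48.4 and 37.2 CPM. The stress response factors had a ratio of 0.888, with Xbp1 at 98.7 and 115 CPM, Atf4 at 105 and 109 CPM and Ddit3, the pro-apoptotic factor CHOP, at 21.3 and 29.9 CPM. The groups for targeting, signal peptidase and stress response changed sides, to 1.03, 1.04 and 1.02, when mitochondrial and ribosomal protein genes were left out of the total. Ribosomal protein genes took 27.8% of UMIs in cKIT+ and 17.3% in cKIT- cells.

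Within each sort, the ER genes followed the amount of Prss34 in the cell. Cells were split by the share of Prss34 in their UMIs, after setting aside cells gated for other granule genes (described further on). In the cKIT+ sort the module took 0.749% of UMIs in 717 cells without Prss34 and 0.964% in 1448 cells with under 0.1%. It reached 1.35% in 566 cells at 0.1 to 0.5%, 1.72% in 1038 cells at 0.5 to 2% and 1.94% in 1216 cells at 2 to 5%. In the 232 cells with 5% or more it was 1.80%, below the preceding step. In the cKIT- sort the shares were 0.583, 0.643 and 0.671% in the lowest 3 steps, with 761, 653 and 210 cells. They were 0.862% in 255 cells at 0.5 to 2%, 1.36% in 735 cells at 2 to 5% and 1.42% in 1044 cells at 5% or more. So in cKIT+ cells the share climbed at each step up to 2 to 5% Prss34 and was lower in the last. In cKIT- cells it stayed nearly flat up to 0.5% Prss34 and climbed after that.

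**Figure D2:**
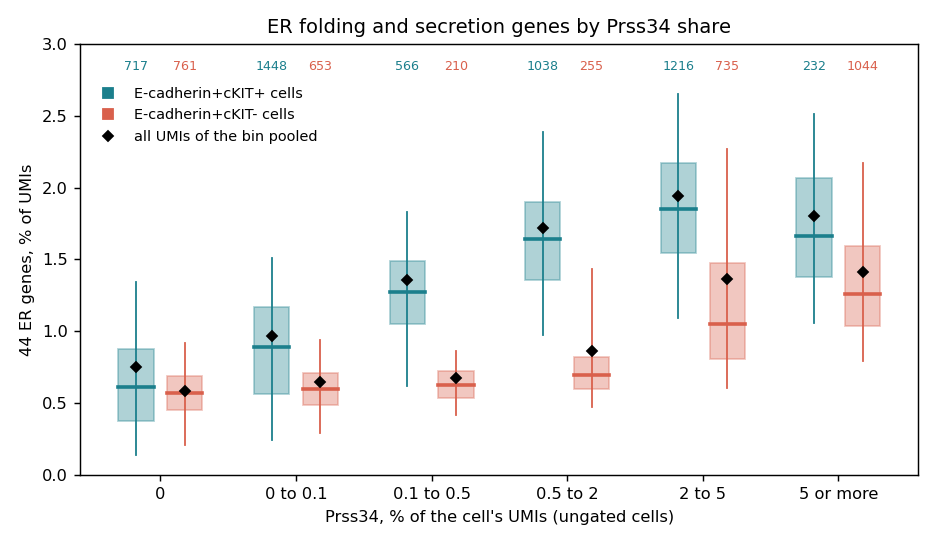
Share of the 44 ER genes in a cell's UMIs (vertical axis, %) by the cell's Prss34 share (horizontal axis, % of UMIs, 6 steps) in cKIT+ and cKIT- cells. Boxes span the quartiles over cells with the median as a bar, lines run from the 5th to the 95th percentile, diamonds give the pooled share and figures on top the number of cells. The pooled cKIT+ share runs from 0.749 to 1.94% and the cKIT- share from 0.583 to 1.42%.

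Other properties of the cells moved along with Prss34. Median UMIs per cell were 10741 in the cKIT+ cells under 0.1% Prss34 and 12548 in those at 5% or more, and 2913.5 and 9507 in the cKIT- cells. Markers of dividing cells (Mki67, Top2a, Cdk1 and Ccnb1) summed to 749 and 1762 CPM in the cKIT+ and to 138 and 1305 CPM in the cKIT- cells. The lowest cells also held other lineages. The 4 neutrophil markers together stood at 38741 CPM in the lowest cKIT+ cells and 14616 CPM in the lowest cKIT- cells, against 97.6 and 87.1 CPM in the highest. The 5 erythroid markers were at 5428 and 3431 CPM in the lowest cells, and the 5 plasma cell markers at 1638 and 3562 CPM. For this reason the comparisons are also given for cells with at least 0.1% Mcpt8 alone, the other basophil protease. Ungated cells drawn down to 2000 UMIs each, which left out 249 shallower cKIT+ and 176 cKIT- cells, had a rank correlation (Spearman) between module and Prss34 UMIs of 0.676 over 4968 cKIT+ cells and 0.667 over 3482 cKIT- cells. These cells share a library and the measures share a total, so the correlations are descriptions.

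Setting the cells at 5% or more against all those under 0.1%, the module was 1.96-fold higher in the cKIT+ sort (1.944 to 1.981) and 2.31-fold higher in the cKIT- sort (2.277 to 2.336). In cKIT+ cells 16 of 40 members compared were at least 2-fold higher, against 8.67% of all 3090 genes, and 0 were at least 2-fold lower, against 5.44%. In cKIT- cells 17 of 39 members were at least 2-fold higher, against 10.4% of 3454 genes, and 0 lower, against 13.6%. Median ratios of the members were 1.82 and 1.85, those of all genes 1.06 and 0.918.

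Restricting both ends to Mcpt8 cells gave 618 low and 232 high cKIT+ cells and a ratio of 1.55, and 736 low and 1044 high cKIT- cells and a ratio of 2.31. In these low cells the neutrophil markers stood at 2764 and 2049 CPM, the erythroid at 52.1 and 10.7 CPM and the plasma cell markers at 6.64 and 33.8 CPM. The dividing markers were at 731 CPM in the low cKIT+ cells and 16.4 CPM in the low cKIT- cells. Then 9 of 40 cKIT+ members were at least 2-fold higher (6.97% of all genes) and 0 lower (4.35%), and 17 of 40 cKIT- members were higher (12.9%) and 1, Ddit3, lower (15.3%).

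In the cKIT+ sort the members with the largest ratios were folding factors. Creld2 had 33.9 CPM in the lowest and 125 CPM in the highest cells (3.69), and Sdf2l1 90.5 and 326 CPM (3.60). The isomerases Pdia6, Pdia4 and Pdia3 followed at 3.37, 3.23 and 2.96, ahead of Hsp90b1 at 2.87 (527 and 1510 CPM). All 5 disulfide formation genes and 6 of 9 Hsp70 and Hsp90 group members were past 2-fold (8.67% of all genes were). The 3 targeting genes had ratios of 1.11 to 1.24. Calr was at 1621 and 3042 CPM (1.88). The smallest ratios among members compared were those of Sec63 (1.04), Srp14 (1.12), Sec61a1 (1.17), Ssr3 (1.19) and Atf4 (1.22). The group ratios put disulfide formation first at 2.98, the Hsp70 and Hsp90 group next at 2.57, and targeting last at 1.17. Among the Mcpt8 cells alone these ratios were smaller. Disulfide formation was at 2.20 (4 of 5 members past 2-fold) and the Hsp70 and Hsp90 group at 2.01 (5 of 9), against 6.97% of all genes past 2-fold. The lectin chaperones were at 1.31 there and at 1.81 in all ungated cells, and targeting was at 1.09.

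The cKIT- sort put other members on top. Sdf2l1, a partner of the BiP cofactor Dnajb11, had 32.5 CPM in the lowest and 256 CPM in the highest cells (7.87, interval 6.67 to 9.35). Calr had 266 and 1793 CPM (6.74), Ddost 94.3 and 590 CPM (6.25) and Pdia6 117 and 726 CPM (6.23). Rpn2 followed at 4.60 and Ssr4 at 4.30. By role the lectin chaperones had the largest ratio, 5.35, then disulfide formation at 3.57 and the oligosaccharyltransferase at 3.11. Hspa5 differed less, at 195 and 328 CPM (1.68). Among the Mcpt8 cells alone Sdf2l1 was at 7.55 and 256 CPM, from 17 UMIs in the low cells, and Calr at 205 and 1793 CPM (8.74).

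Stress factors and a few other members went the other way in the cKIT- sort. Ddit3, under the 50 CPM limit here, was at 43.0 CPM in the lowest and 23.7 CPM in the highest cells (0.550), Atf4 at 138 and 94.6 CPM (0.685) and Herpud1 at 119 and 88.6 CPM (0.747). Dnajb9, a target of XBP1, was at 48.0 and 35.04 CPM (0.729) and Srp14 at 311 and 280 CPM (0.901). Xbp1 itself was level at 118 and 116 CPM. In the cKIT+ sort these factors and Herpud1 were level or higher in the highest cells, with Ddit3 at 22.8 and 23.9 CPM, Atf4 at 90.4 and 111 CPM, Herpud1 at 55.2 and 101 CPM and Xbp1 at 68.9 and 114 CPM. Dnajb9, in contrast, had its lowest level at 5% or more Prss34 in the cKIT+ sort as well. As a group the stress factors stood at 1.36 in cKIT+ and 0.783 in cKIT- cells. Among the Mcpt8 cells alone they stood at 1.32 and 0.8235, with 2 of 3 factors above 1 in cKIT+ and 1 of 3 in cKIT- cells. The difference between the ratios of the 2 sorts was not tested, since each rests on 1 library.

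**Figure D3:**
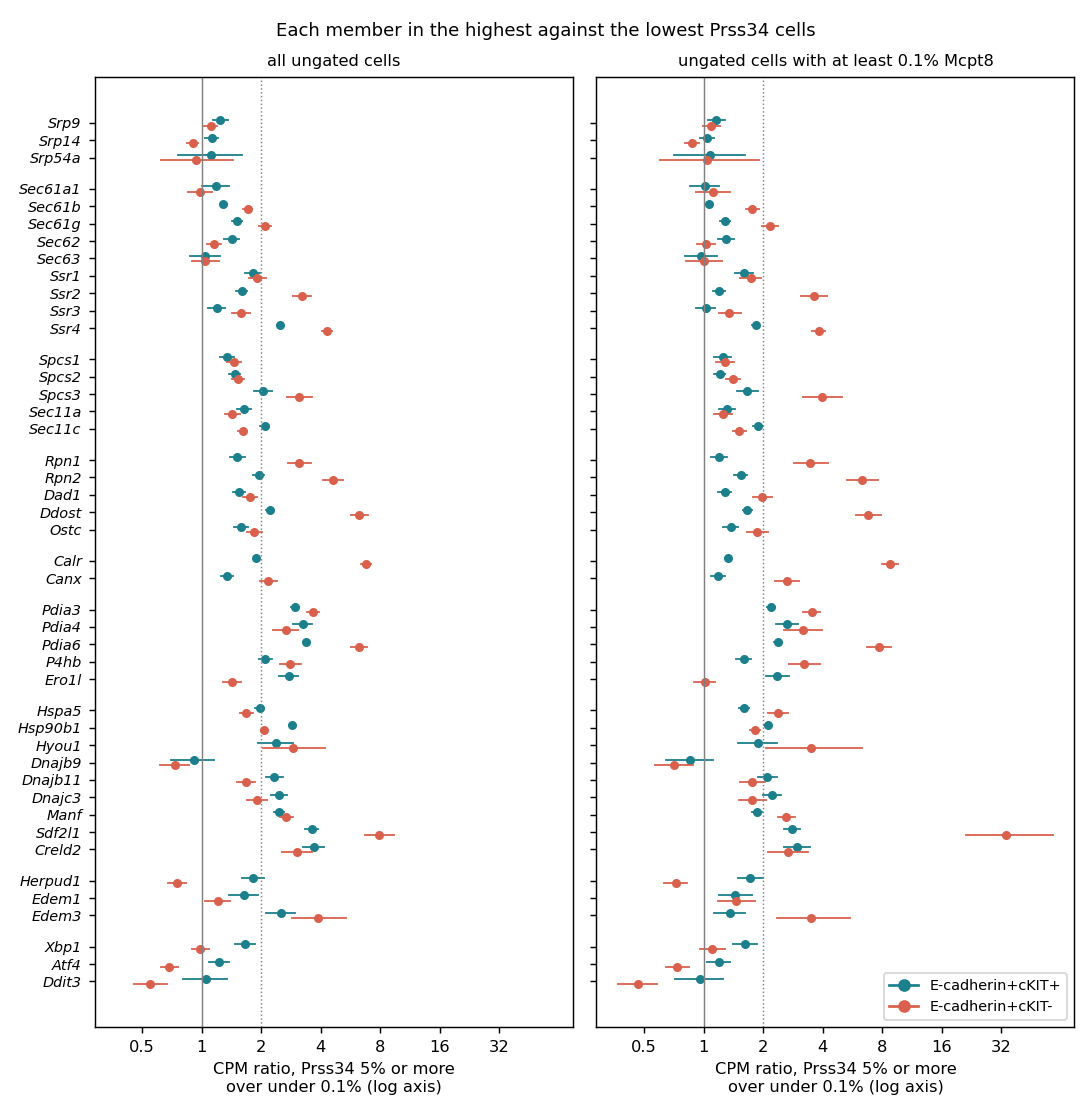
Ratio of each member's CPM in cells with 5% or more Prss34 over cells with under 0.1% (horizontal axis, log scale), in all ungated cells (left) and in those with at least 0.1% Mcpt8 (right). Points are ratios and lines 95% intervals for counting error, members are ordered by role, the solid line marks 1 and the dotted line 2. Sdf2l1, Calr, Ddost and Pdia6 lie farthest right in the cKIT- sort, and Ddit3, Atf4, Dnajb9 and Herpud1 lie left of 1 there.

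The step at which each gene peaked also differed. In the cKIT+ sort 38 of 44 members had their lowest level in cells without Prss34, 24 their highest level at 2 to 5% and 15 at 5% or more. Ssr4, Ddost, Pdia3, Ero1l and Xbp1 were among those still highest in the last step. In the cKIT- sort 23 members were lowest in cells without Prss34 and 10 at 0.1 to 0.5%, 14 were highest at 2 to 5% and 21 at 5% or more. Dnajb9, Herpud1, Xbp1 and Atf4 were highest there at under 0.1%. Such counts were made for the members alone and not over all genes, so they do not set the members apart from other genes. Members under 50 CPM have wide counting intervals at single steps, as the plot of 8 members shows for Ddit3, so a peak of such a gene is not firmly placed.

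**Figure D4:**
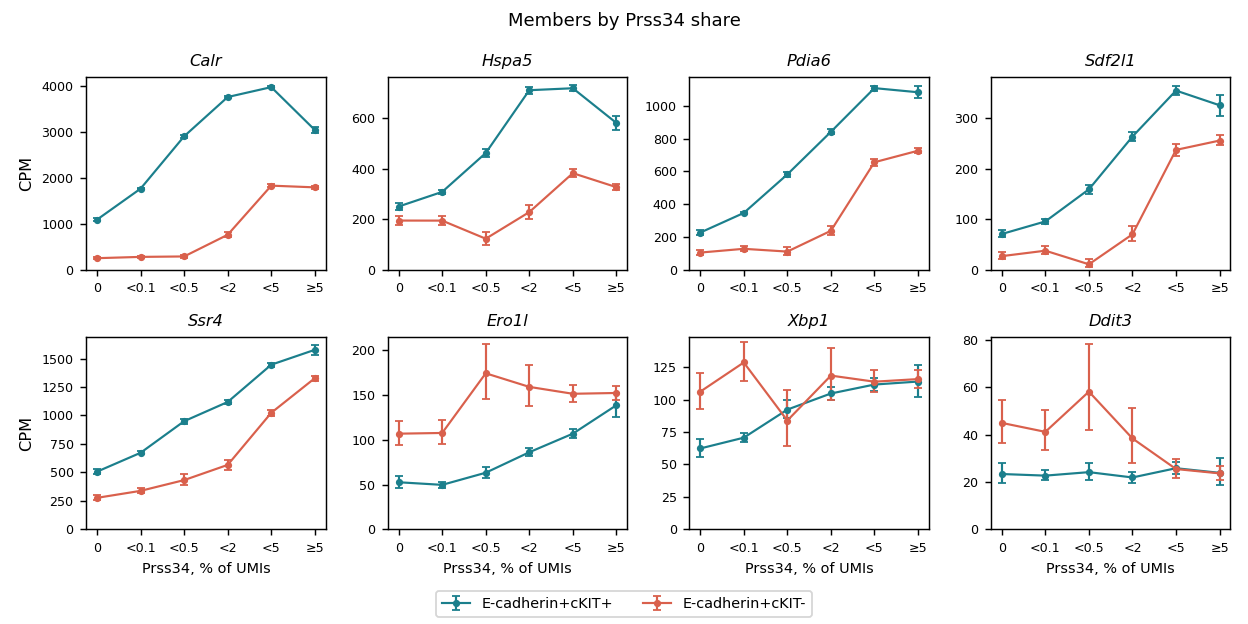
Level of 8 members (vertical axes, CPM, each starting at 0) by Prss34 share of the cell (horizontal axes, 6 steps) in both sorts, with 95% intervals for counting error. Calr runs from 1091 to 3974 CPM in cKIT+ cells and from 252 to 1830 CPM in cKIT- cells, whereas Xbp1 stays between 83.9 and 129 CPM in cKIT- cells and Ddit3 is highest there at 0.1 to 0.5% Prss34 (58.2 CPM).

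Cells of the same Prss34 share still differed between the sorts. The module was higher in cKIT+ cells in each of the 6 steps, by 1.29, 1.499, 2.02, 1.99, 1.42 and 1.27-fold from the lowest to the highest step. Under 0.1% Prss34, 9 of 36 members compared passed 2-fold on the cKIT+ side (14.6% of all genes did) and 2 on the cKIT- side (23.2%). Calr was at 1621 CPM in cKIT+ and 266 CPM in cKIT- cells (6.09) and Ddost at 326 and 94.3 CPM (3.46), followed by Sdf2l1 (2.78), Pdia6 (2.75) and Rpn1 (2.63). On the other side were Herpud1 at 55.2 and 119 CPM (0.465), Ero1l at 50.4 and 107 CPM (0.469), Xbp1 (0.585), Edem1 (0.639) and Atf4 (0.654). The cells under 0.1% were not alike in the 2 sorts, with medians of 10741 UMIs in cKIT+ and 2913.5 in cKIT- cells. Neutrophil markers were at 38741 and 14616 CPM, B cell markers at 124 and 1399 CPM and dividing markers at 749 and 138 CPM. Cells at 0.1 to 0.5% differed too, with medians of 13108 and 3492.5 UMIs. Their dividing markers were at 807 and 74.4 CPM and their neutrophil markers at 3325 and 10.8 CPM. At 0.5 to 2% the medians were 13887 and 4112 UMIs and the dividing markers 895 and 356 CPM. The part of these properties in the module and member ratios was not tested. At 2 to 5%, Calr alone of 41 members was past 2-fold (3974 and 1830 CPM, 2.17), against 1.14% of all genes, and 0 were lower, against 3.97%. At 5% or more, 0 of 40 members were past 2-fold in either direction, with 0.374% and 0.408% of all genes past it. Hspa5 (1.78), Calr (1.70), Edem3 (1.59), P4hb (1.51) and Pdia6 (1.49) had the largest ratios among members compared there.

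In the cKIT+ sort, other lineages could be set apart by their granule genes. A cell was gated when Elane (neutrophil elastase), Prg2 (eosinophil major basic protein) or Gzmb (granzyme B) reached at least 3 UMIs and 0.1% of its UMIs, and 36 cells past both the Elane and Prg2 gates were kept apart. This gave 680 Elane, 280 Prg2 and 266 Gzmb cells beside 5217 ungated cells. The module took 1.49% of UMIs in Elane cells (1.487 to 1.499), 1.61% in Prg2 cells (1.593 to 1.626), 0.628% in Gzmb cells (0.618 to 0.638) and 1.45% in ungated cells. Elane and Prg2 cells were thus close to the ungated cells (ratios 1.03 and 1.11), and Gzmb cells held far less (ratio 0.433, interval 0.426 to 0.440). The ungated cells pool all Prss34 steps, from 0.749% without Prss34 and 1.35% at 0.1 to 0.5% up to 1.94%. Prss34 itself stood at 1703 CPM in Gzmb cells and 14152 CPM in ungated cells. Median UMIs per cell were 24220, 4448.5, 8243 and 12798 in Elane, Prg2, Gzmb and ungated cells. The cKIT- sort held 3 Elane cells, 0 Prg2 cells and 1 Gzmb cell, too few to describe.

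Each gate fixes the level of its own gene, so the cells are described by the other markers. In Elane cells Mpo and Prtn3 stood at 8839 and 7001 CPM, against 2742 and 165 CPM in ungated cells, and Ctsg at 5556 and 3379 CPM. In Prg2 cells the eosinophil genes Epx and Prg3 stood at 2260 and 1516 CPM, against 25.1 and 9.90 CPM in ungated cells. In Gzmb cells the mast cell chymase Cma1 stood at 483 CPM, against 5.86 CPM in ungated cells, from 1167 of the 1631 UMIs of this gene in the library. Mcpt4 had 1 UMI in the Gzmb cells and Tpsb2 and Tpsab1 had 0. These cells also had 8577 CPM of the basophil list, against 33382 CPM in ungated cells, and 3845 CPM of the neutrophil list, against 15481 CPM. Within the basophil list Gata2 (956 and 599.5 CPM), Csf2rb2 (151 and 106 CPM) and Cpa3 (2439 and 2353 CPM) were higher in Gzmb than in ungated cells. The other genes of that list, Mcpt8 and Prss34 among them, were lower. The dividing markers stood at 165 CPM, against 977 CPM in ungated cells. The basophil and neutrophil sums were thus present but lower than in ungated cells, and Mcpt4, Tpsb2 and Tpsab1 were all but absent. For this reason no cell type name is given to the Gzmb cells.

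In Gzmb cells 16 of 39 members compared were at least 2-fold lower than in ungated cells, against 7.11% of all 3263 genes, and 0 at least 2-fold higher, against 8.09%. Calr was at 474 CPM in Gzmb and 2917 CPM in ungated cells (0.162) and Sdf2l1 at 39.3 and 216 CPM (0.182). Pdia6 (206 and 705 CPM), Hspa5 (164 and 531 CPM), Manf (138 and 444 CPM) and Hsp90b1 (330 and 1041 CPM) had ratios between 0.292 and 0.317. These are chaperones and isomerases, and the lectin chaperones were the lowest role at 0.203. The oligosaccharyltransferase was at 0.488, with all 5 subunits below 1, and the translocon at 0.535, with 8 of 9 members below 1 and Ssr4 (0.374) and Ssr2 (0.402) past 2-fold. Sec62 was the translocon member above 1 (213 and 181 CPM, 1.18). Signal peptidase genes stood at 0.733 and targeting genes at 0.903, with Sec11a (182 CPM in both) and Srp14 (257 and 261 CPM) near level. The stress response factors were at 0.759 as a group. Among them Xbp1 was past 2-fold lower (40.5 and 92.6 CPM, 0.438) and Atf4 was at 0.843, whereas Ddit3, below the 50 CPM limit, had 38.9 CPM in Gzmb and 23.6 CPM in ungated cells (1.65).

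Elane cells had 0 members at least 2-fold higher (3.82% of 3034 genes) and 1 lower (8.11%). That member was Edem3, at 8.14 CPM in Elane and 58.8 CPM in ungated cells (0.139). Sec61b (1140 and 801 CPM, 1.42), Xbp1 (130 and 92.6 CPM, 1.40), Ostc (1.38), Ssr1 (1.32) and Hspa5 (1.32) were on the higher side, and Creld2 (0.653), Hsp90b1 (0.760), Pdia4 (0.823) and Sec11c (0.846) on the lower. Prg2 cells had 1 of 41 members at least 2-fold higher (3.46% of 3117 genes) and 0 lower (4.97%). This was Dnajb9, at 66.8 CPM against 31.9 CPM in ungated cells (2.10). Rpn1 (389 and 207 CPM, 1.87), Canx (547 and 295 CPM, 1.85), Ssr3 (1.76) and P4hb (1.65) came next, while Edem3 (0.655), Ero1l (0.656), Dnajb11 (0.729), Creld2 (0.778) and Pdia3 (0.801) were lower.

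**Figure D5:**
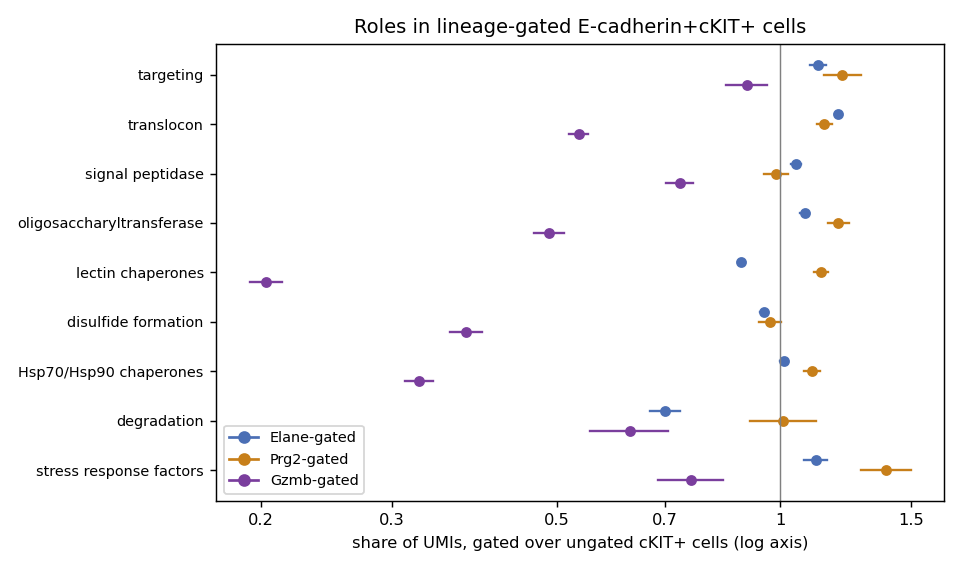
Share of UMIs of each role in Elane, Prg2 and Gzmb cells over that in ungated cells of the cKIT+ sort (horizontal axis, ratio, log scale), with 95% intervals for counting error. Roles are listed from targeting to stress response factors. In Gzmb cells the lectin chaperones stand at 0.203 and targeting at 0.903, and in Prg2 cells the stress response factors at 1.39.

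A list of 67 further secretory pathway genes, none a member, was examined in the same way. Between the sorts 38 reached 50 CPM, 1 passed 2-fold on the cKIT+ side (6.14% of all genes did) and 0 on the other (11.5%), and their median ratio was 0.996. That gene was Lman1, a cargo receptor for ER exit, at 128 and 60.6 CPM. Selenok (196 and 355 CPM) and Ppib (827 and 1272 CPM) had the lowest ratios, 0.551 and 0.650. From the lowest to the highest Prss34 cells, 3 of 39 were at least 2-fold higher in the cKIT+ sort (8.67% of all genes) and 0 lower (5.44%), and 5 of 39 higher (10.4%) and 2 lower (13.6%) in the cKIT- sort. The shares of the list past 2-fold on the higher side were thus near those of all genes, but most of the list was shifted upward by less. In the cKIT+ sort 35 of 39 had ratios above 1 (56.4% of all genes), with a median of 1.36 (1.06 for all genes). In the cKIT- sort 30 of 39 had ratios above 1 (44.1%), with a median of 1.27 (0.918). The prolyl isomerases Ppib (3.32 and 3.69) and Fkbp2 (2.51 and 5.51) were among the higher in both sorts. Mzb1, a plasma cell chaperone, was lower in the cKIT- sort (0.294 CPM in the highest and 131 CPM in the lowest cells). It is itself on the plasma cell marker list, so that list is no separate account of it. The B cell markers stood at 52.6 CPM in the highest and 1399 CPM in the lowest cKIT- cells. Ppp1r15a, which reverses the translation block of the stress response, was at 28.5 and 84.9 CPM in the highest and lowest cKIT- cells (0.335). In Gzmb cells 1 of 38 was higher (8.09% of all genes), Ppp1r15a (67.8 and 19.95 CPM, 3.40), and 3 were lower (7.11%), Fkbp2, Krtcap2 and Mogs, at 0.435 to 0.456. Only 5 of the 38 had ratios above 1 there (55.8% of all genes), and their median ratio was 0.7445 (1.06 for all genes).

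Over the 15 groups of at least 50 cells (both sorts, by Prss34 step and gate), the genes outside the module whose CPM went most closely with the module's were found among 4446 genes with at least 50 CPM in 1 group. Pearson correlations were 0.9853 for Krtcap2, an oligosaccharyltransferase subunit, 0.981 for Edem2, 0.973 for Magt1, 0.967 for Dpm3 and 0.959 for Mfsd10. The most opposite genes were Zfp36l2 (-0.922) and Bri3 (-0.911). Among the members themselves Manf (0.987), Pdia6 (0.975) and Ddost (0.973) followed the sum most closely. Ddit3 (-0.709), Srp14 (-0.249), Dnajb9 (-0.0846), Ero1l (-0.00947) and Herpud1 (-0.00700) did not follow it, and Sec62 (0.0729) and Atf4 (0.104) hardly did. The groups of a sort share a library, so these values are descriptions, and those of members include the member in the sum.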

How the data were processed

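For each of the 2 sorts of mouse marrow, 1 droplet library was made. The values are UMI counts of genes in cells, deposited as unnormalized matrices, and the submitters' processing notes name Cell Ranger 3.0.2 and mm10. The kit is version 3 in the methods and the series' design text and version 2 in the samples' protocol, and the release of the annotation is not given in the sources used here. The study's filter was applied per library, which drops genes found in fewer than 40 cells, cells in the top or bottom 1% by genes and those in the top 1% by UMIs. This kept 10141 of 10377 cells. Groups were summed and expressed as CPM. The paper's clusters and colony assays were not used here.

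The members and lists were chosen with earlier results of these data known. The rule for named genes took, per comparison, the 5 members with the largest ratio in each direction at 50 CPM or more, the 3 such genes of the pathway list, and the gate and marker genes. Ratios carry exact binomial intervals, shares Clopper-Pearson intervals and levels exact Poisson intervals, all for counting error only. Calls at 2-fold were tried on simulated counts with 4-fold changes and Poisson error alone, where 199 of 200 changed genes were called. Variation between cells, mice or libraries was not simulated, so this checks the arithmetic only. The comparison restricted to Mcpt8 cells was taken member by member after the data were seen. Doublets were kept in the main values. Scrublet, run in Scanpy 1.11.5, called 347 of 6632 and 15 of 3745 cells, and its cKIT- call (under 0.5% of cells) was not used. Instead an alternative left out the highest scores at 0.8% per 1000 cells, 320 and 105 of the kept cells. edgeR 4.0.16 served for TMM factors alone (0.988 and 1.01). Python 3.11.15, numpy 2.4.6 and scipy 1.17.1 were used. Gene coordinates were checked in GENCODE for GRCm38, where 30934 of 31053 identifiers were found, and promoters came from RefSeq.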

Additional observations from a re-analysis of the deposited data

How the results depend on the processing

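No paired analysis was possible because each sort has 1 library, so no replicate could be left out either. Of 171 values under other settings, 94 were kept, 74 moved and 3 changed sides, the latter all when mitochondrial and ribosomal protein genes left the total (targeting 1.031, signal peptidase 1.036, stress response factors 1.018, which brought the roles higher in cKIT+ cells from 5 to 8). Module shares and ratios were kept if they stayed within the counting interval. The module sums run to large counts, so small shifts leave the interval, and the cause of a shift was not tested. Counts of members and roles, and role group ratios, were held to a wider limit, 1.5-fold of the main value. Of the values kept, 60 were role group ratios. The lectin chaperone ratio was thus kept at 2.637 with equal weight per cell, against 1.92. With large UMI numbers the intervals are narrow, but mice and libraries were not replicated, and members under 50 CPM are not placed firmly. The module stayed higher in cKIT+ cells in every setting, and higher in the highest than the lowest Prss34 cells in both sorts.

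For all deposited cells, each cell thinned to 2000 UMIs, equal weight per cell, a total without the 10 most abundant genes, a total without mitochondrial and ribosomal genes and the module without Calr, in this order, the cKIT+ share was 1.436, 1.326, 1.312, 1.622, 2.096 and 1.162% and the cKIT- share 1.215, 0.9678, 0.9437, 1.427, 1.506 and 1.047%. Their ratio was 1.182, 1.37, 1.39, 1.137, 1.391 and 1.11. Without the cells of highest doublet score the cKIT+ share was 1.448% and the ratio 1.22, TMM scaling gave 1.244, and UMIs per cell, which follow the depth of the cells, gave 2.735. Members at least 2-fold higher in cKIT+ cells numbered 0 with all deposited cells and without the 10 most abundant genes, 2 after thinning and without mitochondrial and ribosomal genes, 3 with equal weight and at 1.5-fold, and 28 by UMIs per cell. Members higher in cKIT- cells numbered 1 without the 10 most abundant genes and 1 at 1.5-fold. Under these settings the counts were made for the members alone and not over all genes, so they do not set the members apart. The count of 28 by UMIs per cell follows the depth of the cells, as the ratio does.

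The ratio of highest over lowest Prss34 cells in the cKIT+ sort was 2.135 after thinning, 2.137 with equal weight, 2.086 without the 10 genes, 1.757 without mitochondrial and ribosomal genes, 1.929 with gates at 0.3%, 1.547 in Mcpt8 cells and 2.114 in cells without Mki67 or Top2a UMIs. The last took the 2 to 5% step as highest, since only 36 such cells had 5% or more. In the cKIT- sort it was 2.35 with all cells, 2.358 without likely doublets, 2.24 after thinning, 2.478 without the 10 genes, 2.253 without mitochondrial and ribosomal genes, 2.105 without Calr and 2.271 without Mki67 or Top2a. Added after seeing the data, a total without the secreted cargo list gave 2.139 and 2.565 in the 2 sorts, and cells of 4000 to 12000 UMIs gave 1.929 in the cKIT- sort. That range held 168 of 1414 lowest and 747 of 1044 highest cKIT- cells. Their medians were 5424 and 8454 UMIs, so the depth of the cells still differed.

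The Elane cells' share was 1.501% with all cells, 1.461 thinned, 1.471 with equal weight, 1.635 without the 10 genes, 2.225 without mitochondrial and ribosomal genes, 1.243 without Calr, 1.473 and 1.507 with gates at 0.05 and 0.3%, and 1.332 at 4000 to 12000 UMIs. For Prg2 cells it was 1.57 thinned, 1.739 without the 10 genes, 2.524 without mitochondrial and ribosomal genes, 1.3 without Calr, 1.571 and 1.637 at the other gates and 1.508 at 4000 to 12000 UMIs. Gzmb cells had 0.5588 without likely doublets, 0.5598 thinned, 0.5762 with equal weight, 0.6995 without the 10 genes, 0.9257 without mitochondrial and ribosomal genes, 0.5804 without Calr, 0.6601 and 0.5399 at the other gates and 0.527 at 4000 to 12000 UMIs.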

Other observations

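Immunoglobulin RNA passed 1% of UMIs in 30 cKIT+ and 217 cKIT- cells. In each library the cell with the highest immunoglobulin share is described here. In the cKIT- library it had 20871 UMIs, 34.3% of them immunoglobulin, and the ER genes took 2.97% (2.744 to 3.21), with 5 of 3662 cells higher. Sec11c stood at 2827 CPM, Hsp90b1 at 2731 CPM, Calr at 2204 CPM and Edem1 at 958 CPM in this cell, and Jchain, which joins antibody units, at 42451 CPM. In the cKIT+ library the cell had 40746 UMIs, 71.6% of them immunoglobulin, and the ER genes took 1.79%, with 1391 of 6479 cells higher. Xbp1 was the highest member there at 2062 CPM, followed by Ssr4 at 1816 CPM and Hsp90b1 at 1644 CPM. The ER genes had 728 UMIs in this cell and 620 in the cKIT- cell. All these shares and levels are taken over totals that include immunoglobulin, which lowers the share of every other gene. They therefore do not rank the 2 cells against each other or against the other cells. Each is a single cell, described without comparison.

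The 36 cKIT+ cells past both the Elane and the Prg2 gates held 1.69% of their UMIs in the ER genes (1.652 to 1.721), at a median of 13078 UMIs per cell. They had 13814 CPM of progenitor markers and 11272 CPM of eosinophil markers, sums that include the gate genes. These cells were not tested as doublets one by one.

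Members with and without the ER stress element can be set side by side as a description. From the lowest to the highest Prss34 cells, the median ratio was 2.47 over 7 members with the element and 1.63 over 27 without in the cKIT+ sort, and 2.17 over 7 and 1.62 over 26 in the cKIT- sort. In Gzmb cells the medians were 0.317 and 0.603. At least 2-fold lower than in ungated cells were 6 of 7 members with the element and 8 of 26 without. Of all genes compared there, 7.11% were. In Elane cells the medians were 0.885 and 1.07. The 7 with the element are chaperones, cofactors or isomerases by role, and 7 other members of these 3 roles had a window without it. Within disulfide formation, in the cKIT+ sort, Pdia6 with the element was at 3.37 and the 4 genes without it had a median of 2.86, all past 2-fold. Within the Hsp70 and Hsp90 group the medians in that comparison were 2.67 over 4 with the element and 2.97 over 2 without. In the cKIT- sort Pdia6 was at 6.23 and the 4 disulfide formation genes without the element at a median of 2.73. The Hsp70 and Hsp90 medians there were 1.98 over 4 with the element and 4.77 over 2 without. In Gzmb cells over ungated cells the Hsp70 and Hsp90 medians were 0.325 over 4 with the element and 0.352 over 2 without. Pdia6 was at 0.292 in that comparison, and the 4 disulfide formation genes without the element at a median of 0.44. The second form was not counted in this split, so Dnajb11 and Herpud1 stand among the members without the element. The part of the element in these differences was not tested.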
